A study of Homo sapiens with 9 samples.

Results

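Epithelial-mesenchymal transition (EMT) was followed through 10 genes: the transcription factors ZEB1, ZEB2, SNAI1, SNAI2 and TWIST1, the mesenchymal products VIM, FN1 and CDH2, and the epithelial surface proteins CDH1 and EPCAM. They were picked by gene symbol from the 25886 symbols of the count table; no threshold on their values was used, but earlier results of these data were known. Each of the 10 was present there. Total RNA of cells labelled HT29, an established human colorectal cancer line, was sequenced after removal of rRNA in 9 libraries, 3 of each group. The groups were Control cells, cells with stable knockdown of DNMT1 and cells with stable knockdown of DNMT3B, and every group is labelled as selected with puromycin. Knockdown was made with lentiviruses; the hairpins, their number and whether a line is a pool or a clone were not given in the sources used here. DNMT1 keeps CG methylation in place when DNA is copied, while DNMT3B can add it to unmarked DNA. Whether replicates came from separate cultures was not stated, so the p-values reflect only how much these libraries varied, and that variation may be technical.

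In an EMT an epithelial cell loosens its junctions and takes on mesenchymal traits. ZEB, SNAIL and TWIST proteins are DNA-binding factors that repress epithelial genes such as CDH1, which encodes E-cadherin, the adhesion protein of epithelial junctions. A cadherin switch is the replacement of E-cadherin by N-cadherin, the product of CDH2. Vimentin (VIM) is the intermediate filament protein of mesenchymal cells, and its gene is often methylated in colorectal cancer. Fibronectin (FN1) is a matrix protein that cells bind through integrins. EPCAM is an adhesion and signalling protein of epithelial cells.

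The 10 genes did not move in one direction. Levels are given as CPM, counts per 1e6 of a library size scaled by TMM (trimmed mean of M values). A gene was called where its p in edgeR's quasi-likelihood test, adjusted by Benjamini-Hochberg among the 16660 genes tested, was under 0.05. Both CDH1 and FN1 rose in each knockdown, while EPCAM and TWIST1 fell in each. SNAI1 rose most with DNMT3B knockdown, and ZEB1 fell with DNMT1 knockdown. VIM stayed near 1 CPM or below in every library, and CDH2 and ZEB2 were at the limit of detection. Of the 10 genes, 8 passed the filter on low counts; 6 were called with DNMT1 knockdown (3 higher, 3 lower), where 41.8% of all tested genes were called. With DNMT3B knockdown 5 were called (3 higher, 2 lower), against 47.7% of tested genes. In the direct comparison of the knockdowns 4 were called (1 higher and 3 lower with DNMT1 knockdown), against 45.2%. Of the 8 tested EMT genes, 75%, 62.5% and 50% were called in these 3 comparisons, shares of so few genes that they are only described. Differences were small: 0 of the 8 changed by 2-fold, which 1.95%, 2.53% and 1.84% of tested genes did in the same 3 comparisons.

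The promoters of the mesenchymal products are shown because these genes stood at very different levels in the same cells, and because CG, the sequence on which both enzymes act, differs in number between the windows. Each run is the 250 bases before the start of the gene in RefSeq (GRCh38.p14), 5′ to 3′ on the gene's strand, with every CG in capitals. FN1 lies at chr2:215436069-215436318 (minus strand), CDH2 at chr18:28177131-28177380 (minus strand, the first of the 2 starts listed) and VIM at chr10:17227991-17228240 (plus strand).
FN1: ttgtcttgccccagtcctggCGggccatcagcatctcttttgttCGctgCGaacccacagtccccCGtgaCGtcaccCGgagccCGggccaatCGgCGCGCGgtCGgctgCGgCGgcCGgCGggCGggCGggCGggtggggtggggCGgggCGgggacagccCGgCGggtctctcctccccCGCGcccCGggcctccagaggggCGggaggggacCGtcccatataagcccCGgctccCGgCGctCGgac
CDH2: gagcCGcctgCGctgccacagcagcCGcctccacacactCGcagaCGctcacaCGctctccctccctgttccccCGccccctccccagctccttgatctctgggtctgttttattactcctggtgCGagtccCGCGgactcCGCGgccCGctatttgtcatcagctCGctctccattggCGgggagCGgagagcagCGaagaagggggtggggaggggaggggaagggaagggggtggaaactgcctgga
VIM: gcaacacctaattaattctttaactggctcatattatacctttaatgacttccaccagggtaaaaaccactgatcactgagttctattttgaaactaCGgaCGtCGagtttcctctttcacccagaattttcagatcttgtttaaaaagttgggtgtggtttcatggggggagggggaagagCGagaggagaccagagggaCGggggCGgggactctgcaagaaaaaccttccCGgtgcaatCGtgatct
The FN1 window held 32 CG, the printed CDH2 window 17 and the VIM window 8; the window at the other CDH2 start held 4, fewer than that of VIM; the median of the 35116 such windows used was 11, with quartiles of 3 and 23. Bases after the start were not counted, so a low number, as for VIM, holds for these upstream bases only. Methylation itself was not measured here, and no link between CG number and level was tested. Of the 10 genes, 5 had a window in the table used (FN1, CDH2, VIM, ZEB1 and ZEB2); CDH1, EPCAM, SNAI1 and TWIST1 had no entry, and SNAI2 was not used. CAGGTG and its reverse complement CACCTG, the E-box that ZEB and SNAIL proteins bind, did not occur in the FN1, CDH2, VIM or ZEB2 windows. It occurred in 2 of the 7 ZEB1 windows (1 and 2 times), and 17.5% of all windows held it. The looser form CANNTG, which includes it, occurred in 61.8% of all windows.

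Library totals, in units of 1e6 counts, ran from 18.8 to 33.7, with Control the deepest group (30.6 ± 3.42, SD, n = 3, against 23.9 ± 0.396 with DNMT1 and 23.0 ± 3.76 with DNMT3B knockdown). Where a library had 0 counts, 3 counts were taken as the limit, or 0.0894 to 0.161 CPM; this and the exact intervals cover counting error only. The targeted genes checked the labels: DNMT1 stood at 55.0% of Control in its knockdown and DNMT3B at 49.9% of Control in its own. Of 8 colon epithelial markers, KRT8, KRT18 and CDX2 were well expressed in Control (1004, 477 and 38.2 CPM). KRT20 was at 1.03 CPM, and VIL1 (0.904), CDH17 (0.317), LGALS4 (0.295) and CEACAM5 (0 counts) were below that, so several defining markers of the colon epithelium were near absent in cells labelled HT29. Markers of leukocytes (8 genes) summed to at most 20.4 CPM in every Control and DNMT1 knockdown library and to 31.9 to 36.9 CPM with DNMT3B knockdown. Endothelial markers (6 genes) summed to 5.61 to 7.63 CPM and 8.14 to 9.80 CPM in the same sets of libraries. Stromal markers (8 genes) were likewise highest with DNMT3B knockdown, at 32.5 to 33.8 CPM. The stromal genes COL1A2 and DCN were at 0 counts in all libraries, and the leukocyte genes PTPRC and CD3E were at or below 0.148 CPM in each group mean. COL1A1 made up most of the stromal sum, and CD68, a lysosomal protein, most of the leukocyte sum. The part of other cell types in the differences of the EMT genes was not tested, and in bulk RNA fewer cells of a type cannot be told apart from less RNA per cell.

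**Figure D1:**
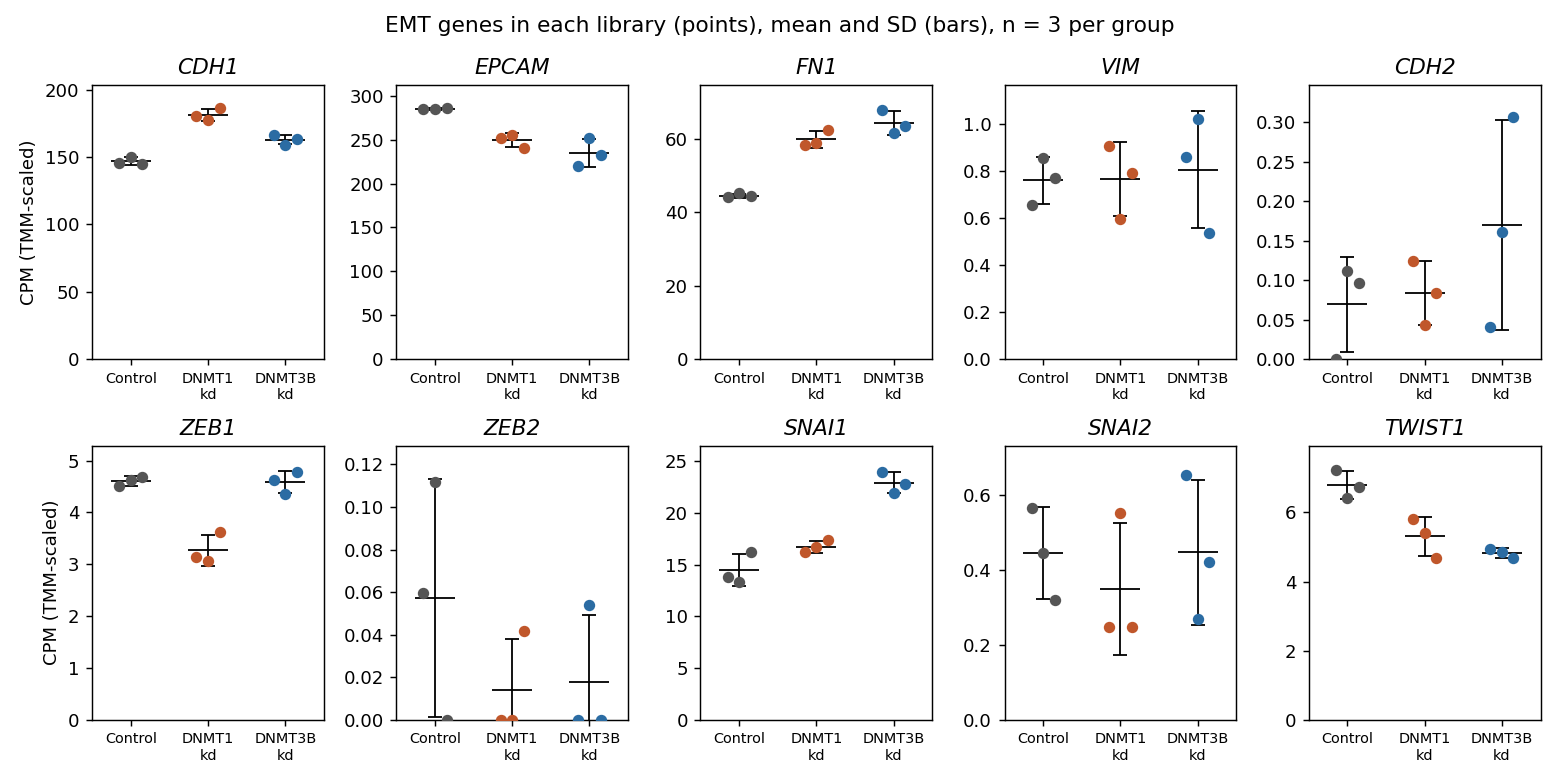
CPM (y axis, TMM-scaled, from 0) of the 10 EMT genes in each library (points) of Control, DNMT1 knockdown (kd) and DNMT3B knockdown, with mean and SD (bars, n = 3). CDH1 and FN1 are higher in both knockdowns with no overlap with Control, EPCAM and TWIST1 are lower, ZEB1 is lower with DNMT1 knockdown, and VIM, CDH2, ZEB2 and SNAI2 overlap between groups.

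Of the epithelial surface genes, CDH1 rose and EPCAM fell in both knockdowns. CDH1 (ENSG00000039068.18, chromosome 16, 68737225 to 68835548, plus strand, GRCh38, GENCODE 29) was at 145, 150 and 145 CPM in the Control libraries. It was at 181, 177 and 186 CPM with DNMT1 knockdown and at 166, 159 and 164 CPM with DNMT3B knockdown. The 3 groups did not overlap, and DNMT1 knockdown was the highest. Against Control, CDH1 was higher by 1.24-fold with DNMT1 knockdown (log2 fold change 0.31 ± 0.034, SE, edgeR adjusted p = 8.85e-09) and by 1.11-fold with DNMT3B knockdown (0.15 ± 0.034, adjusted p = 0.000439). Set against each other, the DNMT1 knockdown exceeded the DNMT3B knockdown by 1.11-fold (edgeR adjusted p = 0.000403).

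EPCAM (ENSG00000119888.10, chromosome 2, 47345158 to 47387601, plus strand) was at 285, 285 and 286 CPM in Control. With DNMT1 knockdown it was at 252, 256 and 241 CPM, and with DNMT3B knockdown at 220, 252 and 232 CPM. Every knockdown library was below every Control library, and the knockdowns overlapped each other. EPCAM fell to 87.4% of Control with DNMT1 knockdown (log2 fold change -0.19 ± 0.038, edgeR adjusted p = 0.000101). DNMT3B knockdown left 82.3% of the Control level (-0.28 ± 0.038, edgeR adjusted p = 2.46e-07). The difference between the knockdowns, 0.09 on the log2 scale (95% interval 0.01 to 0.17), was not called (edgeR adjusted p = 0.0608). It was called in 5 of 18 alternative analyses, among them those without DNMT3B knockdown replicate 2 (0.14, adjusted p = 0.0018) or DNMT1 knockdown replicate 3 (0.11, adjusted p = 0.0357).

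Among the mesenchymal products, FN1 rose, and VIM and CDH2 stayed at very low levels. FN1 (ENSG00000115414.18, chromosome 2, 215360440 to 215436172, minus strand) was at 44.0, 45.1 and 44.3 CPM in Control. It was at 58.2, 58.8 and 62.3 CPM with DNMT1 knockdown and at 67.9, 61.6 and 63.4 CPM with DNMT3B knockdown. All 6 knockdown libraries lay above all Control libraries. FN1 was 1.35-fold higher with DNMT1 knockdown (log2 fold change 0.43 ± 0.044, edgeR adjusted p = 1.67e-09) and 1.45-fold higher with DNMT3B knockdown (0.54 ± 0.044, adjusted p = 8.97e-12). The knockdown libraries overlapped each other, and a difference between them of -0.11 ± 0.043 (edgeR adjusted p = 0.0423) was lost in 9 of 18 alternative analyses, including without DNMT3B knockdown replicate 1 (-0.07, adjusted p = 0.286). It was also lost without DNMT1 knockdown replicate 1 or 2, DNMT3B knockdown replicate 3 or Control replicate 3 (adjusted p up to 0.148). Stromal markers, for cells that also make fibronectin, summed to 20.7 to 25.6 CPM in Control, 23.6 to 28.4 with DNMT1 and 32.5 to 33.8 with DNMT3B knockdown. COL1A1 was at 17.6 ± 2.14, 21.5 ± 2.29 and 27.5 ± 0.61 CPM in that order and was called higher in both knockdowns (edgeR adjusted p = 0.00123 and 3.56e-09). THY1 was at 5.00, 4.06 and 5.29 CPM and was called lower with DNMT1 knockdown only (edgeR adjusted p = 0.0303). COL1A2 and DCN were at 0 in each group. The FN1 promoter run printed above was the richest of the 3 in CG. A part of stromal cells or of CG number in the FN1 difference was not tested.

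VIM (ENSG00000026025.15, chromosome 10, 17228259 to 17237593, plus strand) was at 0.656, 0.856 and 0.770 CPM in Control (22, 23 and 24 counts). With DNMT1 knockdown it was at 0.908, 0.596 and 0.789 CPM and with DNMT3B knockdown at 0.859, 1.02 and 0.536 CPM. The 3 groups overlapped throughout. No difference was called against Control (edgeR adjusted p = 0.952 with DNMT1 and 0.890 with DNMT3B knockdown). At 14 to 24 counts per library the 95% intervals of the log2 difference ran from -0.51 to 0.56 and from -0.49 to 0.59, so changes smaller than that were not detectable at this depth.

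CDH2 (ENSG00000170558.8, chromosome 18, 27950966 to 28177446, minus strand) had 0, 3 and 3 counts in the Control libraries, 3, 1 and 2 with DNMT1 knockdown and 1, 3 and 8 with DNMT3B knockdown. It did not pass the low-count filter. Summed over a group it stood at 0.0655 CPM in Control (exact Poisson 95% interval 0.0240 to 0.143), 0.0836 with DNMT1 knockdown (0.0307 to 0.182) and 0.174 with DNMT3B knockdown (0.0897 to 0.303). The depth-adjusted ratio of DNMT3B knockdown to Control was 2.65, with an exact counting interval of 0.920 to 8.60, and 8 of the 12 counts came from 1 library. A switch from E-cadherin to N-cadherin mRNA was therefore not detectable: the mean of CDH1 was above 145 CPM in each group.

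The EMT transcription factors moved in different directions. SNAI1 (ENSG00000124216.3, chromosome 20, 49982999 to 49988886, plus strand), which encodes the repressor SNAIL, was at 13.8, 13.3 and 16.2 CPM in Control. With DNMT1 knockdown it was at 16.2, 16.7 and 17.3 CPM, and with DNMT3B knockdown at 24.0, 21.9 and 22.8 CPM. DNMT3B knockdown libraries lay above the other 6, whereas 1 Control library overlapped the DNMT1 knockdown. SNAI1 was 1.59-fold higher with DNMT3B knockdown than in Control (log2 fold change 0.67 ± 0.067, edgeR adjusted p = 8.13e-10), the largest change among the tested EMT genes in any of the 3 comparisons. With DNMT1 knockdown it was 1.16-fold higher (0.21 ± 0.07, adjusted p = 0.0155), a call lost without Control replicate 1 or 2 (adjusted p = 0.0767 and 0.0940), without DNMT1 knockdown replicate 3 (0.0706) and at equal depth (0.0623). The direct comparison placed SNAI1 lower with DNMT1 than with DNMT3B knockdown (-0.46 ± 0.068, edgeR adjusted p = 1.51e-06).

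ZEB1 (ENSG00000148516.21, chromosome 10, 31318495 to 31529814, plus strand), a zinc finger repressor of CDH1, was at 4.50, 4.62 and 4.68 CPM in Control. It was at 3.14, 3.07 and 3.61 CPM with DNMT1 knockdown and at 4.62, 4.36 and 4.79 CPM with DNMT3B knockdown. The DNMT1 knockdown libraries lay below the other 6, which overlapped. ZEB1 fell to 71.2% of Control with DNMT1 knockdown (log2 fold change -0.49 ± 0.113, edgeR adjusted p = 0.000744), and was not called with DNMT3B knockdown (0.00, 95% interval -0.21 to 0.22, adjusted p = 0.978). The knockdowns differed from each other (-0.49 ± 0.12, edgeR adjusted p = 0.00104). ZEB1-AS1, an RNA named as antisense at this locus, was at 2.97 ± 0.148 CPM in Control and was not called in either knockdown (edgeR adjusted p = 0.230 with DNMT1 and 0.482 with DNMT3B knockdown). Since the use of strand in counting is not given in the sources used here, reads of the pair may not be told apart. ZEB2 (ENSG00000169554.19, chromosome 2, 144364364 to 144524583, minus strand), the second ZEB factor, had 5 counts over the Control libraries and 1 over each set of knockdown libraries. It was not tested, and its ratios to Control of 0.255 and 0.265 had exact counting intervals of 0.00539 to 2.28 and 0.00560 to 2.37.

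TWIST1 (ENSG00000122691.12, chromosome 7, 19020991 to 19117672, minus strand), a basic helix-loop-helix factor, was at 7.21, 6.40 and 6.74 CPM in Control. It was at 5.82, 5.41 and 4.69 CPM with DNMT1 knockdown and at 4.95, 4.84 and 4.67 CPM with DNMT3B knockdown. Both knockdowns lay below Control and overlapped each other. TWIST1 fell to 78.0% of Control with DNMT1 knockdown (log2 fold change -0.36 ± 0.097, edgeR adjusted p = 0.00336; lost at equal depth, adjusted p = 0.0990). DNMT3B knockdown left 70.8% (-0.50 ± 0.1, edgeR adjusted p = 0.000117). Their difference, 0.14 with a 95% interval of -0.09 to 0.37, was not called (edgeR adjusted p = 0.321). SNAI2 (ENSG00000019549.11, chromosome 8, 48917604 to 48921740, minus strand), which encodes SLUG, had 10 to 19 counts per Control library (0.321 to 0.566 CPM). It had 6 to 13 counts with DNMT1 knockdown (0.248 to 0.554 CPM) and 5 to 16 with DNMT3B knockdown (0.269 to 0.654 CPM). The groups overlapped and no difference from Control was called (edgeR adjusted p = 0.482 and 0.927), with 95% intervals of -1.13 to 0.42 and -0.68 to 0.78 on the log2 scale.

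**Figure D2:**
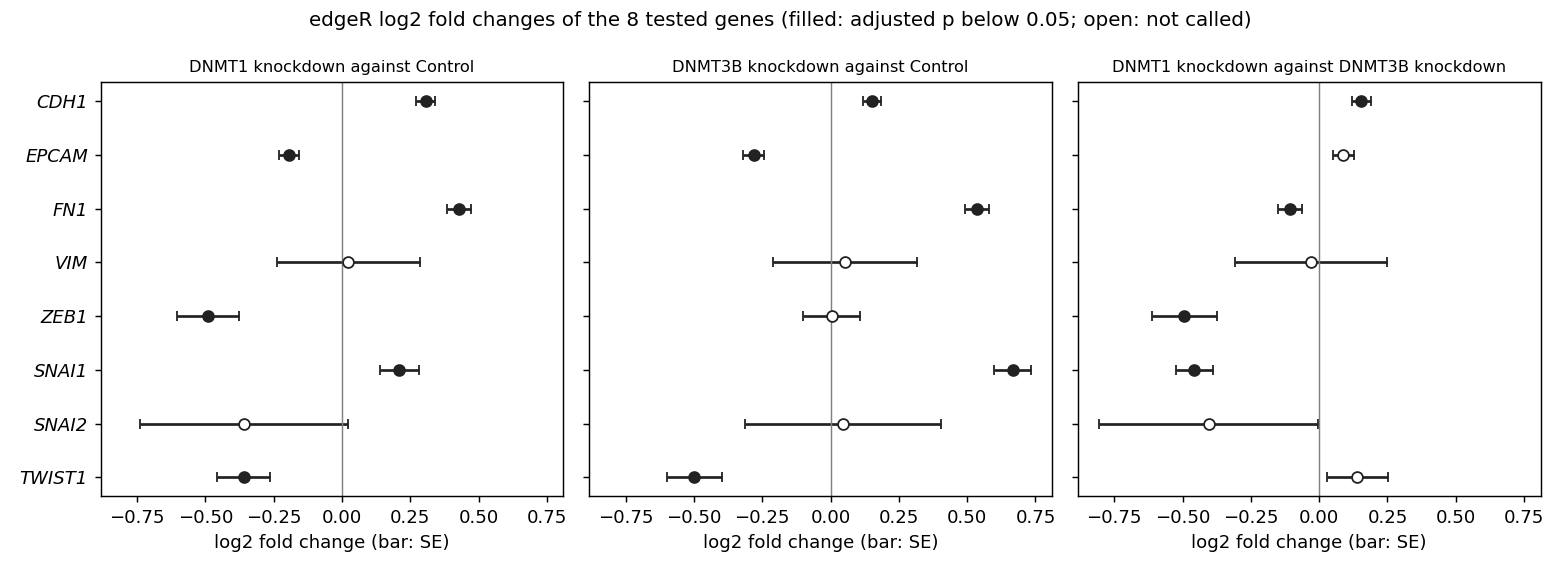
Log2 fold changes (x axis, edgeR, bars SE) of the 8 tested EMT genes in the 3 comparisons; filled points passed an adjusted p of 0.05 and open points did not. CDH1 and FN1 lie to the right and EPCAM and TWIST1 to the left in both knockdowns, and SNAI1 with DNMT3B knockdown is the farthest from 0 at 0.67; both comparisons with Control use the same 3 Control libraries.

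Levels of different genes were compared per kilobase of annotated exon, which depends on the annotation and not on which transcripts these cells make. On that scale Control levels ran in the order EPCAM (113 ± 0.284 CPM per kb), CDH1 (23.8 ± 0.481), SNAI1 (8.56 ± 0.922), TWIST1 (3.34 ± 0.201), FN1 (2.57 ± 0.0336), ZEB1 (0.532 ± 0.0107), VIM (0.147 ± 0.0195), SNAI2 (0.131 ± 0.0362), CDH2 (0.014 ± 0.0122) and ZEB2 (0.00228 ± 0.00223). VIM and SNAI2 overlapped, as did CDH2 and ZEB2. The 6 genes from EPCAM to ZEB1 did not overlap with their neighbours. In both knockdowns FN1 passed TWIST1 (3.45 ± 0.128 against 2.61 ± 0.28 CPM per kb with DNMT1 knockdown, and 3.72 ± 0.187 against 2.37 ± 0.0689 with DNMT3B knockdown). The divisor merges all annotated exons, 17.3 kb for FN1 and 2.03 kb for TWIST1. A shorter FN1 transcript would place FN1 higher, so the order of these genes in Control is uncertain. SNAI1 was the most abundant of the 5 factors per kb in every group, at 2.56 times TWIST1 in Control and 5.73 times with DNMT3B knockdown.

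Other cadherins, adhesion proteins of the same family, were measured beside CDH1 and CDH2. Of 20 other classical and gut cadherin genes in the table, 6 were tested; 4 rose and 0 fell with DNMT1 knockdown, and 3 rose and 0 fell with DNMT3B knockdown. The median log2 fold changes of the tested 6 were 0.29 and 0.44, against 0.00 over all tested genes in both comparisons. The low-count filter can admit a gene through the group where it is high, and such a gene can hardly be called lower there. CDH17 was at 0.0813 ± 0.0156 CPM per kb in Control and 0.156 ± 0.0444 with DNMT3B knockdown. The median of so few genes can turn on such a gene, so no shared rise is read from it. The same filter was used for every later list. For this and every later list, the share called over all tested genes is the measure to set beside the counts. It was 41.8% with DNMT1 knockdown, 47.7% with DNMT3B knockdown and 45.2% in the direct comparison. CDH3, which encodes P-cadherin of epithelial cells, was the most abundant of these and of CDH1 and CDH2 per kb, at 33.7 ± 0.21 CPM per kb in Control or 1.42 times CDH1. CDH3 was at 210 ± 1.31 CPM in Control and rose by 1.18-fold with DNMT1 knockdown (edgeR adjusted p = 2.8e-07), whereas its level of 201 ± 4.96 CPM after DNMT3B knockdown was not called (adjusted p = 0.0829). CDH15, the muscle cadherin, rose from 2.10 ± 0.246 CPM to 5.36 ± 0.62 with DNMT1 knockdown (2.56-fold) and to 3.65 ± 0.397 with DNMT3B knockdown (1.75-fold, edgeR adjusted p = 4.81e-10 and 2.45e-05). CDH22 rose from 3.12 ± 0.161 to 4.97 ± 0.389 and 5.52 ± 0.149 CPM in the same order.

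**Figure D3:**
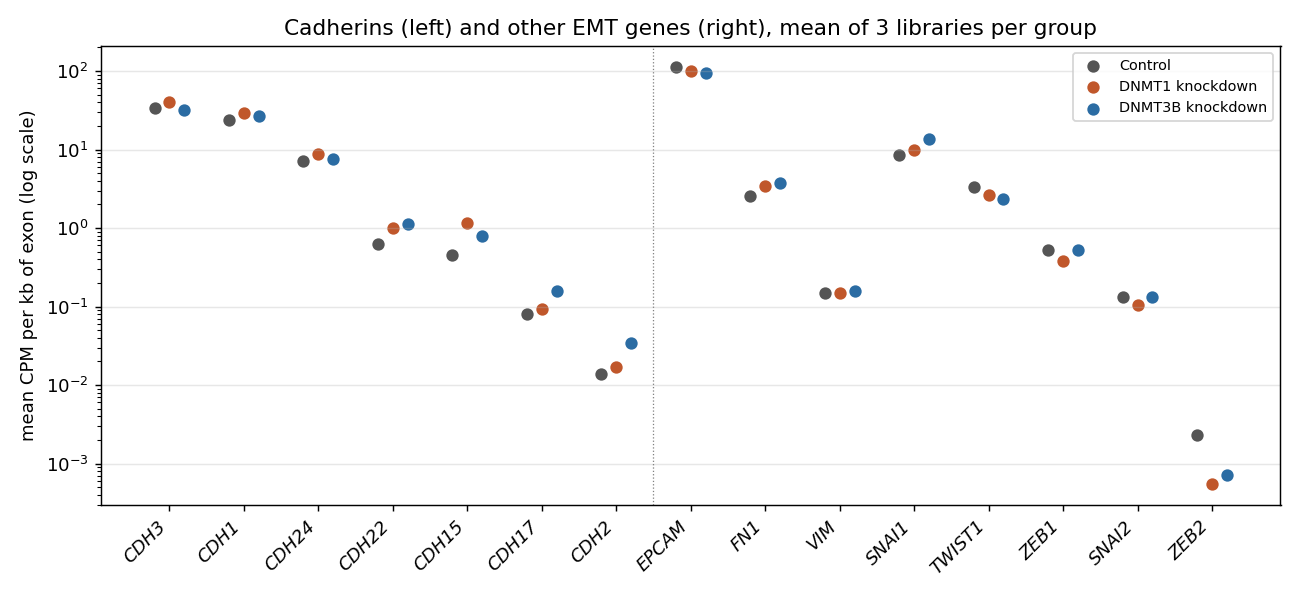
Mean CPM per kilobase of annotated exon (y axis, log scale) of cadherins (left) and other EMT genes (right) in Control, DNMT1 knockdown and DNMT3B knockdown, each point the mean of 3 libraries. CDH2, with 12 counts or fewer per group, is the lowest of the cadherins drawn, CDH1 and CDH3 are the highest, and the order of the 5 transcription factors from SNAI1 to ZEB2 is the same in the 3 groups.

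Of the catenin genes named here, whose products link cadherins to actin, CTNNA1 was called with DNMT3B knockdown only. JUP rose and CTNNB1 fell in both knockdowns. Of 7 tested genes of the cadherin complex, 4 rose and 1 fell with DNMT1 knockdown, and 2 rose and 4 fell with DNMT3B knockdown. CTNNA1, which encodes alpha-catenin, was at 444 ± 11.4 CPM in Control and fell to 258 ± 6.67 CPM after DNMT3B knockdown, 58.1% of the Control level (log2 fold change -0.78 ± 0.034, edgeR adjusted p = 1.12e-18). With DNMT1 knockdown it was at 451 ± 8.59 CPM (adjusted p = 0.604), and the knockdowns differed (0.81 ± 0.034, edgeR adjusted p = 1.28e-18). JUP, which encodes plakoglobin, rose from 439 ± 9.63 CPM to 585 ± 17.7 with DNMT1 and 519 ± 17.1 with DNMT3B knockdown. In the direct comparison JUP was higher with DNMT1 knockdown in all 18 alternatives (log2 fold change 0.15 to 0.20). CTNNB1, which encodes beta-catenin, fell from 409 ± 15.7 CPM to 354 ± 13.5 with DNMT1 and 345 ± 25.5 with DNMT3B knockdown. Its difference between the knockdowns, 0.04 ± 0.041 (SE), was not called, though 1 of 18 alternatives called it.

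Regulators of the epithelial programme were called in both directions. Of 12 tested, 6 rose and 2 fell with DNMT1 knockdown, and 5 rose and 5 fell with DNMT3B knockdown. Without DNMT3B knockdown replicate 3, 3 and not 5 fell with DNMT3B knockdown. EHF, an epithelial ETS factor, changed most among the genes named from this list: from 0.128 ± 0.0737 CPM in Control (2 to 7 counts per library) it rose to 3.27 ± 0.567 CPM with DNMT1 knockdown (log2 fold change 4.59 ± 0.275, edgeR adjusted p = 5.71e-15). With DNMT3B knockdown EHF rose to 2.00 ± 0.169 CPM (3.89 ± 0.314, edgeR adjusted p = 7.55e-12). In Control EHF was under the filter's minimum count of 10, so it entered the test through the knockdown libraries. Such a gene could be called higher than Control but hardly lower, so its rise is given as a description. GRHL3, a grainyhead factor of surface epithelia, rose from 0.969 ± 0.303 to 6.32 ± 0.296 CPM with DNMT1 knockdown (6.41-fold, edgeR adjusted p = 1.1e-15). After DNMT3B knockdown GRHL3 was at 1.64 ± 0.21 CPM (1.65-fold higher, edgeR adjusted p = 0.0051). ELF3, a further ETS factor of epithelia, rose from 49.4 ± 1.05 to 82.5 ± 1.6 and 85.2 ± 2.64 CPM. FOXA1, a pioneer factor of endoderm, fell from 9.29 ± 0.271 CPM in Control to 6.53 ± 0.287 with DNMT3B knockdown (edgeR adjusted p = 9.4e-06). With DNMT1 knockdown FOXA1 was 1.19-fold higher than in Control (edgeR adjusted p = 0.00908, lost in 2 of 18 alternatives) and 1.69-fold higher than with DNMT3B knockdown (adjusted p = 1.16e-08). Among 23 surface and junction genes, 8 rose and 2 fell with DNMT1 knockdown, and 6 rose and 10 fell with DNMT3B knockdown. The 10 called with DNMT1 knockdown were near the 41.8% of all tested genes, and the 16 with DNMT3B knockdown stood against 47.7%. SPINT2, an inhibitor of surface proteases, fell from 213 ± 11.9 CPM to 171 ± 6.55 and 148 ± 14.8 CPM, and CLDN3, a tight junction claudin, fell from 13.2 ± 0.546 to 8.17 ± 1.3 CPM with DNMT3B knockdown (edgeR adjusted p = 9.56e-08). CLDN3 was at 13.1 ± 0.983 CPM with DNMT1 knockdown.

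Other transcription factors linked to EMT were mostly called higher with DNMT1 knockdown. Of 9 tested, 8 rose and 0 fell with DNMT1 knockdown (median log2 fold change 0.39), and 3 rose and 2 fell with DNMT3B knockdown (median -0.04). The second count was 3 in all, not 5, without Control replicate 1 or without DNMT3B knockdown replicate 1 or 2. In the direct comparison 8 were higher with DNMT1 knockdown and 0 were lower. SOX4, an SRY-box factor, rose from 671 ± 3.81 CPM to 994 ± 6.52 with DNMT1 and 870 ± 29.4 with DNMT3B knockdown. FOXC1, a forkhead factor, rose from 47.5 ± 1.57 to 74.7 ± 2.21 CPM with DNMT1 knockdown and fell to 43.1 ± 1.82 CPM with DNMT3B knockdown (edgeR adjusted p = 3.36e-14 and 0.0123; the second was lost in 2 of 18 alternatives). Cofactors that ZEB and SNAIL proteins recruit were called in both directions, 5 higher and 3 lower of 12 with DNMT1 and 4 higher and 5 lower with DNMT3B knockdown. The 5 higher with DNMT1 knockdown became 3 without Control replicate 3, without DNMT1 knockdown replicate 3, by DESeq2 and without the low-count filter; the calls of SMARCA4 and SIN3A, both chromatin proteins, were lost in 7 and 6 of 18 alternatives. CTBP2, a corepressor of ZEB proteins, rose from 150 ± 1.75 to 175 ± 3.01 CPM with DNMT1 knockdown and fell to 134 ± 1.2 CPM with DNMT3B knockdown. Of 9 genes that control SNAIL protein turnover or activity, 2 rose and 1 fell with DNMT1 knockdown. The rises included PRKD1, at 0.206 ± 0.0992 CPM in Control and 0.810 ± 0.184 with DNMT1 knockdown. PRKD1 passed the low-count filter through the DNMT1 knockdown libraries. With DNMT3B knockdown 0 rose and 4 fell. The shares called, 3 and 4 of 9, did not exceed those of all tested genes (41.8% and 47.7%). The counts of this list rested on single libraries. The 3 calls with DNMT1 knockdown became 5 without Control replicate 2. The 4 with DNMT3B knockdown became 1 without Control replicate 3 and 2 without DNMT3B knockdown replicate 1. GSK3B, the kinase that marks SNAIL for degradation, fell from 207 ± 3.02 to 174 ± 6.01 CPM with DNMT3B knockdown (edgeR adjusted p = 7.14e-07). Its 205 ± 8.71 CPM after DNMT1 knockdown was not called (edgeR adjusted p = 0.716).

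Mesenchymal effector genes also split. Of 20, 12 were tested; 6 rose and 1 fell with DNMT1 knockdown, and 6 rose and 4 fell with DNMT3B knockdown, with median log2 fold changes of 0.18 and 0.40. Without the low-count filter, which tests more of the 20, 10 rose with DNMT3B knockdown. S100A4, a calcium-binding protein of motile cells, rose from 4.30 ± 0.638 to 17.4 ± 1.09 CPM with DNMT1 knockdown (4.01-fold) and fell to 3.00 ± 0.693 CPM with DNMT3B knockdown (edgeR adjusted p = 1.89e-17 and 0.00189). SPARC, a matrix protein, rose from 0.177 ± 0.0533 to 1.52 ± 0.165 CPM with DNMT1 knockdown and to 0.582 ± 0.118 CPM with DNMT3B knockdown. Like EHF, SPARC passed the low-count filter through knockdown libraries, and its rise is a description. NES, which encodes nestin, rose from 10.1 ± 0.207 to 21.3 ± 0.724 and 18.8 ± 1.17 CPM in the DNMT1 and DNMT3B knockdown. Of the 6 intermediate filament genes tested beside VIM, NES included, 2 rose and 1 fell in each knockdown; without DNMT3B knockdown replicate 2, 5 were called with DNMT3B knockdown.

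Genes for fibronectin's receptors, and for proteases that cut membrane proteins such as E-cadherin and EPCAM, were called in both directions. Of 8 fibronectin receptor and assembly genes, 2 rose and 2 fell with DNMT1 knockdown, and 4 rose and 2 fell with DNMT3B knockdown. Leaving out 1 library took the first count to 1 higher (Control replicate 2, DNMT1 knockdown replicate 1 or 2) or 1 lower (Control replicate 3, DNMT1 knockdown replicate 3). The integrin subunit ITGAV fell in both knockdowns, from 92.9 ± 1.46 CPM to 85.3 ± 5.09 with DNMT1 knockdown (edgeR adjusted p = 0.0145, lost in 2 of 18 alternatives) and to 64.8 ± 2.95 with DNMT3B knockdown (adjusted p = 8.95e-12). ITGB1, its partner subunit, fell from 297 ± 5.23 to 227 ± 6.13 CPM with DNMT3B knockdown (edgeR adjusted p = 5.81e-11), and its 294 ± 11.3 CPM with DNMT1 knockdown was not called (adjusted p = 0.761). TNS1, the adhesion protein tensin, rose in both, from 19.6 ± 1.89 CPM to 24.0 ± 0.158 with DNMT1 and 30.0 ± 1.53 with DNMT3B knockdown (edgeR adjusted p = 0.000216 and 4.09e-10). All 3 differed between the knockdowns (edgeR adjusted p = 5.31e-09 for ITGAV, 1.51e-10 for ITGB1 and 5.02e-05 for TNS1).

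Of 11 genes for cleavage of membrane proteins, 3 rose and 2 fell with DNMT1 knockdown, and 1 rose and 8 fell with DNMT3B knockdown. The 5 called with DNMT1 knockdown were near the 41.8% of all tested genes, and the 9 with DNMT3B knockdown stood against 47.7%. Over the alternatives 5 to 8 fell with DNMT3B knockdown, with 5 without Control replicate 3, and without Control replicate 1 the 2 that fell with DNMT1 knockdown became 1. ADAM10, the sheddase of E-cadherin, fell in both, from 139 ± 5.4 CPM to 128 ± 2.72 with DNMT1 knockdown (edgeR adjusted p = 0.00626, lost in 1 of 18 alternatives) and to 115 ± 1.8 with DNMT3B knockdown (adjusted p = 1.5e-07). MMP14, a membrane-bound metalloprotease, fell from 30.3 ± 2.33 to 18.2 ± 0.325 CPM with DNMT3B knockdown (edgeR adjusted p = 1.79e-11). Its level with DNMT1 knockdown, 92.4% of Control, was not called (adjusted p = 0.107). BACE1 and APH1A rose with DNMT1 knockdown, by 1.20-fold and 1.11-fold (edgeR adjusted p = 1.14e-05 and 0.000972). Both fell with DNMT3B knockdown, APH1A losing that call in 2 of 18 alternatives. NCSTN was the 1 that rose with DNMT3B knockdown (1.13-fold, edgeR adjusted p = 0.000431).

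**Figure D4:**
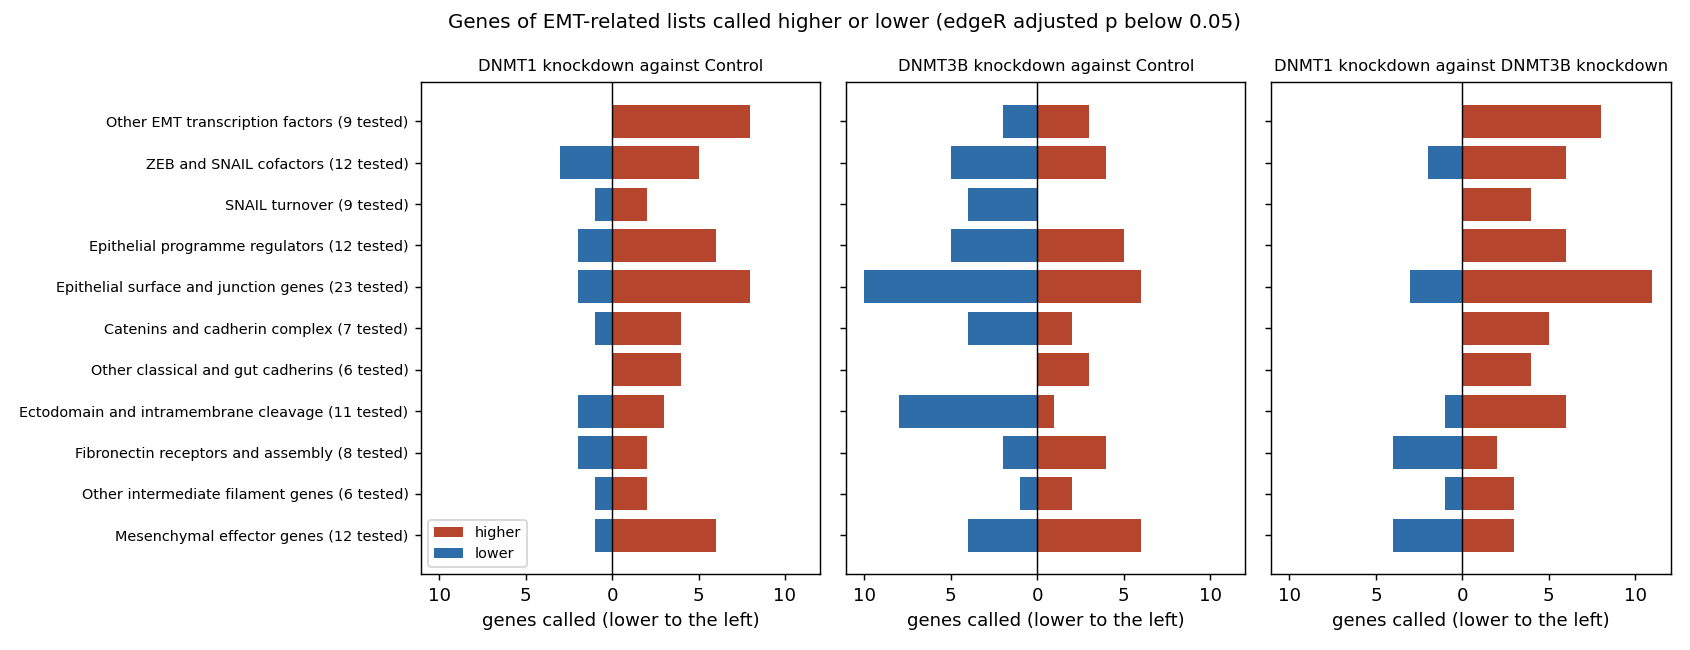
Numbers of genes called higher (right) or lower (left) by edgeR in each EMT-related list and comparison, x axis in genes, with the number tested beside each name. Other EMT transcription factors have 8 genes to the right and 0 to the left with DNMT1 knockdown. Cleavage genes have 8 to the left with DNMT3B knockdown (5 without Control replicate 3). Over all genes tested, 21% were higher and 20.8% lower with DNMT1 knockdown, and 23.1% and 24.6% with DNMT3B knockdown. In the direct comparison 24.3% were higher and 20.9% lower with DNMT1 knockdown.

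For the 3 EMT genes with the largest change in either knockdown, the genes with the most similar profile were sought among the 14758 tested genes whose mean reached 1 CPM. Pearson's r of log2 CPM over the 9 libraries is given as a description; the libraries fall into 3 groups, so many genes reach such values. SNAI1 was most like SIK3 (r = 0.990), MGLL (0.989) and WIZ (0.976). FN1 was most like MMP24OS (0.996), PML (0.995) and ZNF385A (0.993). TWIST1 was most like GINS3 (0.980), MTMR14 (0.978) and H4-16 (0.977), the last a histone gene whose near-identical copies make its value uncertain.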

How the data were processed

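The authors deposited raw read counts per gene symbol for 9 libraries, 3 for each of the 3 groups. STAR, featureCounts and DESeq2 were used with GRCh38 (hg38), per the submitters' processing notes; versions, annotation and strand setting were not given in the sources used here. Groups came from the sample titles.

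Genes passing filterByExpr by group (16660 of 25886 symbols) were scaled by TMM and fitted in edgeR 4.0.16 (R 4.3.3) by the quasi-likelihood test over all 9 libraries, with 6 residual and 25.4 prior degrees of freedom. P-values were adjusted by Benjamini-Hochberg for the 16660 genes, with calls under 0.05. The SE is the log2 fold change divided by the square root of the F statistic. CPM values used TMM-scaled totals; ± is the SD, n = 3, unless called SE. Gene positions and exon lengths are from GENCODE 29.

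The genes and lists were chosen with earlier results of these data known. Genes named from a list were among the 3 called genes per comparison with the smallest adjusted p, where the higher group reached 1 CPM. Marker genes, ZEB1-AS1 and PRKD1 were named outside this rule. Not every gene that the rule selects is reported here. Alternatives were DESeq2 1.42.0, limma-voom (limma 3.58.1), other scalings, filters, fits of 2 groups, equal depth, a replicate block and leaving out each library. The fit was tested on simulated data. No column lacked a sample. Genes of the miR-200 family were not analysed here.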

Additional observations from a re-analysis of the deposited data

How the results depend on the processing

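The calls of the 10 EMT genes were recomputed under 18 alternatives, of which 9 left out 1 library each. With DNMT1 knockdown 6 were called, 5 to 6 without one library and 4 at equal depth, where SNAI1 (log2 fold change 0.18) and TWIST1 (-0.24) were lost. With DNMT3B knockdown 5 were called in every alternative. In the direct comparison 4 were called, and 3 to 5 without one library, with FN1 and EPCAM crossing the threshold. No called gene changed direction. No pairing of libraries by replicate number was seen. Correlations of deviations from the group mean ran from -0.0565 to 0.0354 for same-numbered libraries and from -0.0302 to 0.0531 for the others. Whether same-numbered libraries shared a culture or preparation was not tested. With a replicate block 6, 5 and 3 EMT genes were called in the 3 comparisons; over all genes 6796, 7789 and 7379 were called, against 6956, 7949 and 7534 without it. The block lost 1 call, FN1 in the direct comparison (adjusted p = 0.0578). Requiring at least 1 CPM in 3 libraries left VIM and SNAI2 untested. Without a low-count filter, ZEB2 and CDH2 were not called in any comparison (smallest adjusted p = 0.171, CDH2 with DNMT3B knockdown). Another scaling moved the median of all genes by at most 0.01. Counts in the gene lists were also recomputed, chosen after seeing the data; with DNMT3B knockdown the other EMT factors had 3 to 5 calls and the SNAIL turnover genes 1 to 5. Depth limits VIM, SNAI2, ZEB2 and CDH2.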
